A study of Mus musculus with 6 samples.

Results

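The NRF2 and glutathione defense genes described here are 10 genes chosen by symbol from the raw count table of 20140 genes: Nfe2l2, Keap1, Nqo1, Gclc, Gclm, Txnrd1, Srxn1, Osgin1, Slc7a11 and G6pdx. All 10 were listed and all 10 passed the filter on low counts, as did 16370 of the genes in all. Whole livers of 6 mice were sequenced on day 21 as poly(A) RNA, 2 livers per group. The sham group, titled control, was treated with PBS. The groups labelled intra-C and intra-S carry the cell line label CT26. They are read here as the premetastatic niche (PMN) group, with CT26 cells implanted into the cecum, and the metastasis group, with CT26 cells injected into the spleen. Both models are in the study, but neither the labels nor the methods spell out which one C and S stand for. CT26 is a mouse colon carcinoma line of BALB/c origin, and the methods place CT26 tumors in BALB/c mice bought at 6 to 10 weeks of age. No genotype or transgene is named for these mice. The implantation route changed together with the group, so the 2 cannot be told apart. Since the tumor cells carry a mouse genome, their RNA counts on the same genes as that of the liver.

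NRF2, encoded by Nfe2l2, is a transcription factor that enters the nucleus under oxidative or electrophilic stress. Its partner KEAP1 holds it in the cytoplasm and passes it to a ubiquitin ligase when the cell is not stressed. In the nucleus NRF2 pairs with a small MAF protein and binds antioxidant response elements (AREs) beside genes for glutathione synthesis, quinone reduction, thioredoxin reduction and NADPH supply. The liver is a main site of glutathione synthesis and of drug conjugation, and hepatocytes carry high levels of these enzymes.

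Because NRF2 acts through AREs, the start regions of the 10 genes were searched on both strands for the ARE core TGACNNNGC, which does not have to be a bound site. RefSeq windows (build GRCm38.p6, from 250 bases before to 50 bases after each start) matched 9 of the 10 genes in 11 windows, 3 of them of Txnrd1, and Gclc had no entry. The core lay in 5 windows of 5 genes and in 12.4% of all 32851 windows. The 4 matches before the start are printed here with 10 bases on each side, printed on the strand of the gene, with the core or its reverse complement in capitals. The fifth match lay 28 bases after the start of Srxn1.
Nfe2l2 (chr2:75704885-75704913, minus strand, 240 bases before the start): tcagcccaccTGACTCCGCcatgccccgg
Gclm (chr3:122245413-122245441, plus strand, 134 bases before the start): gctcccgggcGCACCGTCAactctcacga
Txnrd1 (chr10:82859104-82859132, plus strand, 92 bases before the second of its 3 starts): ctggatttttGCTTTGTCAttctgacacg
G6pdx (chrX:74428919-74428947, minus strand, 57 bases before the start): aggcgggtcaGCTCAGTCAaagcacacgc

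A motif related to the ARE, the AP-1 site TGACTCA, was found in 5.2% of all windows and in those of Srxn1 and Osgin1. None of these AP-1 sites overlapped an ARE core with the letters TGACNNNGC, and looser forms of the ARE were not searched. The AP-1 sites are shown because neither gene had that core before its start, with the site or its reverse complement in capitals. Neither motif was present in the windows of Keap1, Nqo1 and Slc7a11, which says only that these letters were not in these windows.
Srxn1, upstream site (chr2:152105412-152105438, plus strand, 102 bases before the start): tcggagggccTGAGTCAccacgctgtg
Srxn1, downstream site (chr2:152105469-152105495, plus strand, 45 bases before the start): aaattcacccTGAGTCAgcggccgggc
Osgin1 (chr8:119437040-119437066, plus strand, 97 bases before the start): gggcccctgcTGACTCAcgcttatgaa

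The libraries held 32838321 to 43368309 counts per liver, and hepatocyte markers such as Alb and Apoa1 were high in all 6 livers, with a summed level of 123679 to 132261 CPM (counts scaled to a common library size, with TMM factors) in sham, 121275 to 167141 in PMN and 143158 to 195553 in metastasis. Of the 14 hepatocyte markers, edgeR's quasi-likelihood test called 1 higher and 1 lower in PMN and 0 higher and 1 lower in metastasis. By log2 fold change, 6 of the 14 were below sham and 8 above in PMN, and 8 below and 6 above in metastasis. Most of the sum was Alb, with means of 90842, 102524 and 132516 CPM in the 3 groups, while Cyp2e1 had 7429, 3913 and 2333. The 12 neutrophil markers summed to 3.87 to 5.12 CPM in sham, where Camp, Elane and Mpo were at 0, to 297 to 653 in PMN and to 439 to 1110 in metastasis, and all 12 were called higher in both. Monocyte and macrophage markers rose from 160 to 163 CPM in sham to 703 to 925 in PMN, with 10 of 12 called, and to 585 to 886 in metastasis, with 9 of 12. Endothelial markers summed to 115 to 125, 299 to 335 and 249 to 423 CPM in the 3 groups, with 4 of 9 called in each comparison with sham. Proliferation genes summed to 11.9 to 20.2, 37.9 to 47.2 and 89.7 to 102 CPM, and erythroid markers to 317 to 457, 328 to 482 and 1314 to 1921. Epithelial and cholangiocyte markers summed to 225 to 273, 339 to 342 and 548 to 639 CPM, stellate and fibroblast markers to 246 to 261, 287 to 314 and 406 to 470, and T, NK and B cell markers to 5.79 to 5.99, 4.38 to 5.82 and 6.07 to 10.9. Of the 8 epithelial and cholangiocyte markers tested, 5 were above sham in PMN and 6 in metastasis, with 0 and 2 called. Krt8 (means 131, 133 and 235 CPM) and Krt18 (86.1, 105 and 199) made up most of that sum. Krt19 (0.541, 0.242 and 0.416) and Epcam (0.425, 0.164 and 0.361) were not higher. All differences below are in whole liver, where fewer cells of a type and less RNA per cell cannot be told apart, and the part of these cell types in them was not tested.

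The first question was how the defense genes of the liver stood in each tumor model against sham. In the PMN livers 1 of the 10 genes fell, Nqo1, and none rose by the test. In the metastasis livers, 2 of the 10 fell, Nqo1 and Gclc, and none rose. Across the whole table, 4.92% of the tested genes were called higher and 2.38% lower in PMN, and 6.78% higher and 3.95% lower in metastasis, at an adjusted p below 0.05. The division of these calls depended on the scaling: with library size alone in place of TMM, 569 genes were called higher and 801 lower in PMN, against 806 and 389, and 838 and 1115 in metastasis, against 1110 and 646. The median log2 fold change of the 10 genes was -0.36 in PMN and -0.49 in metastasis, beside 0.01 and 0.04 over all tested genes. At an unadjusted p below 0.05, 1 of the 10 was higher and 4 were lower in each comparison, beside 2493 higher and 1935 lower of the 16370 tested genes in PMN and 2817 and 2132 in metastasis. Both comparisons use the same 2 sham livers and are therefore not independent, and when either sham liver was left out, edgeR called no gene of the whole table in either.

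**Figure D1:**
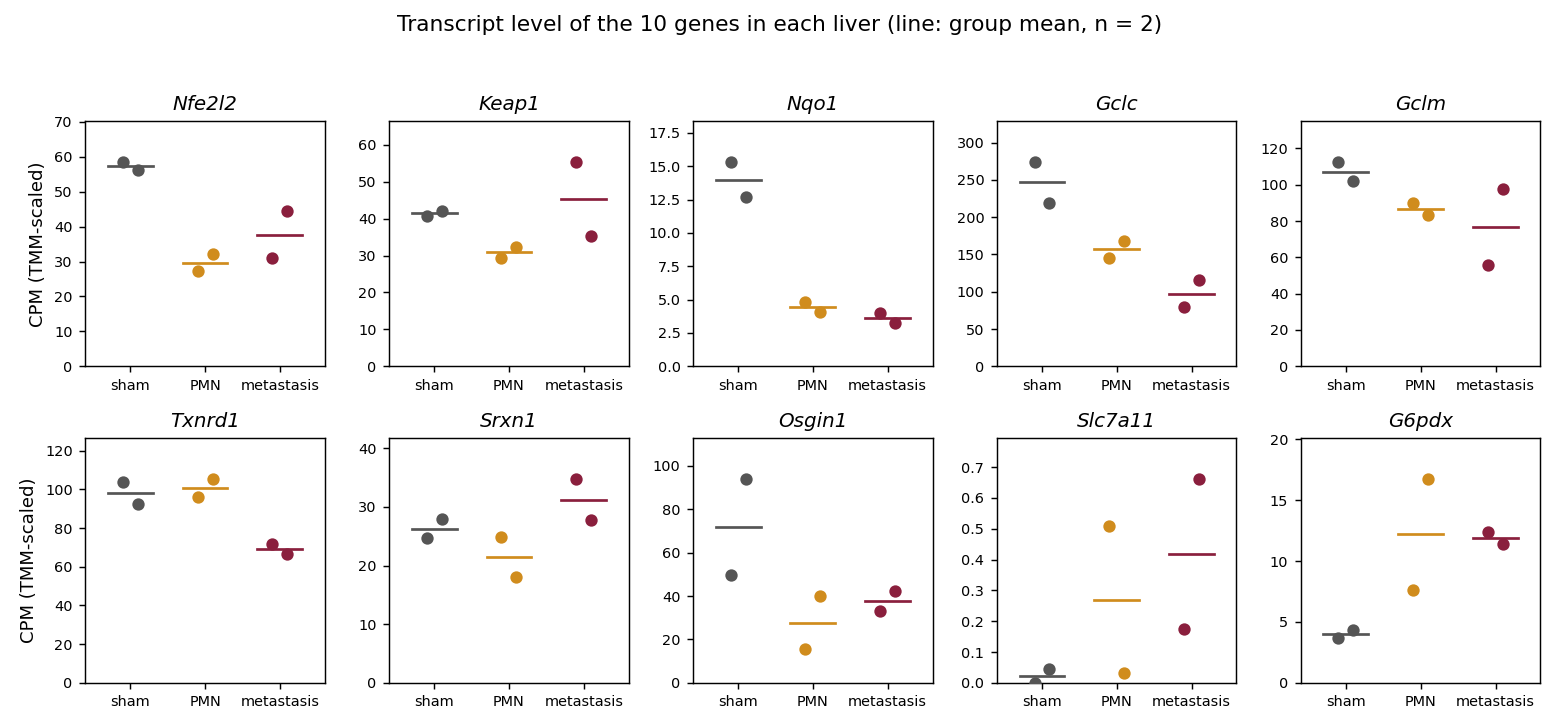
Level of each of the 10 genes in each liver in CPM (vertical axes on a linear scale from 0), with 1 point per liver and a line at the mean of the 2 livers of a group. Nqo1 lay at 12.7 to 15.3 CPM in sham and at 3.24 to 4.84 CPM in the other 4 livers, whereas Srxn1 overlapped between sham and both other groups.

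Nqo1 encodes the quinone reductase that reduces quinones to hydroquinones with NAD(P)H and is the usual readout of NRF2 activity. Its level was 15.3 and 12.7 CPM in sham, 4.84 and 4.08 CPM in PMN and 4.02 and 3.24 CPM in metastasis. All 4 livers of tumor-bearing mice lay below both sham livers. The log2 fold change was -1.65 ± 0.26 (SE, n = 2 against 2, edgeR adjusted p = 0.0223) in PMN, a 3.13-fold lower level. In metastasis it was -1.95 ± 0.27 (SE, edgeR adjusted p = 0.0131), a 3.85-fold lower level. The call in PMN was lost when either sham liver or either PMN liver was left out (edgeR adjusted p between 0.137 and 0.206), and that in metastasis when sham 1 (0.127) or sham 2 (0.0966) was left out, with log2 fold changes of -1.50 or lower in each of these fits.

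The sensor pair came next. Nfe2l2 was at 58.4 and 56.1 CPM in sham, 27.3 and 32.1 CPM in PMN and 31.0 and 44.3 CPM in metastasis. Neither group overlapped sham, but the differences did not pass the test over all genes. In PMN it had a log2 fold change of -0.95 (95% CI -1.51 to -0.38, edgeR adjusted p = 0.0626) and in metastasis of -0.60 (95% CI -1.16 to -0.04, edgeR adjusted p = 0.142). The PMN difference was called in 5 of 16 alternative analyses, among them DESeq2 (adjusted p = 0.0103) and a fit of only the 2 groups (edgeR adjusted p = 0.00463). In metastasis it was called in 1, without metastasis 2 (edgeR adjusted p = 0.00995).

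Keap1 had 40.8 and 42.0 CPM in sham, 29.4 and 32.4 CPM in PMN, and 55.3 and 35.2 CPM in metastasis, where the 2 livers lay on either side of sham. Its log2 fold change was -0.42 (95% CI -1.03 to 0.18) in PMN and 0.13 (95% CI -0.48 to 0.73) in metastasis, and the latter had a negative sign with library size alone or on TPM. The PMN value was called in 1 of 16 alternative analyses, a fit of only the 2 groups (edgeR adjusted p = 0.0463). Part of Keap1, 10.9% of its exon bases, is shared with the antisense gene Gm16754, and with a kit that does not mark strand these reads cannot be told apart. On TPM, which accounts for gene length, the ratio of Keap1 to Nfe2l2 was 0.597 and 0.640 in sham, 0.919 and 0.863 in PMN, and 1.52 and 0.678 in metastasis. All 4 livers of tumor-bearing mice had a higher ratio than both sham livers. With 2 livers per group this is a description without a test.

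Gclc and Gclm encode the catalytic and the modifier subunit of glutamate-cysteine ligase, the rate-limiting enzyme of glutathione synthesis. Gclc was at 274 and 219 CPM in sham, 146 and 168 CPM in PMN and 79.0 and 116 CPM in metastasis, so that the 3 groups did not overlap. It fell in metastasis by 1.34 ± 0.26 on the log2 scale (SE, n = 2 against 2, edgeR adjusted p = 0.0303), a 2.53-fold lower level. In PMN the log2 fold change was -0.65 (95% CI -1.28 to -0.02, edgeR adjusted p = 0.172). That PMN difference was called in 3 of 16 alternative analyses, a fit of only the 2 groups among them (edgeR adjusted p = 0.024). The call in metastasis was lost in a fit of only the 2 groups (edgeR adjusted p = 0.0757), without sham 1 (0.226) or sham 2 (0.16), and without PMN 1 (0.0789) or PMN 2 (0.0799).

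Gclm was at 112 and 102 CPM in sham, 90.0 and 83.1 CPM in PMN and 56.0 and 97.6 CPM in metastasis. Both groups lay below sham, and the 2 metastasis livers differed from each other 1.74-fold. For Gclm it was -0.31 (95% CI -0.998 to 0.38) in PMN and -0.48 (95% CI -1.17 to 0.21) in metastasis, on the log2 scale, neither of which passed the test. The metastasis value was -0.94 without metastasis 2, where it was called (edgeR adjusted p = 0.00684), and -0.13 without metastasis 1. Gclm shares 4.71% of its exon bases with the antisense gene Gm17494 and 3.88% with the pseudogene Gm6061. The TPM ratio of Gclc to Gclm was 1.47 and 1.30 in sham, 0.974 and 1.22 in PMN and 0.850 and 0.717 in metastasis. The catalytic subunit was the more abundant transcript in both sham livers and in 1 PMN liver, and the modifier subunit in the other PMN liver and in both metastasis livers.

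**Figure D2:**
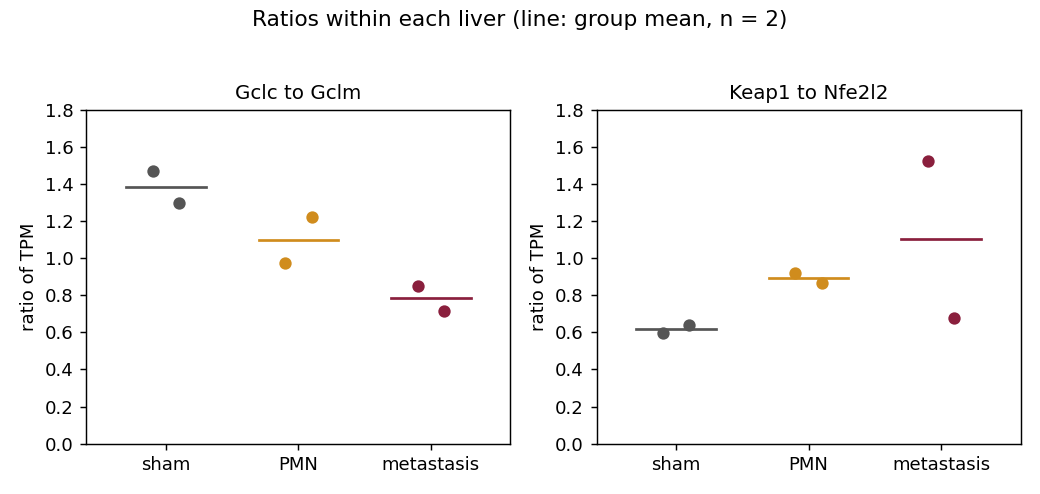
Ratio of TPM within each liver for Gclc to Gclm (left) and Keap1 to Nfe2l2 (right), with 1 point per liver and a line at the group mean. The Gclc to Gclm ratio was 1.30 to 1.47 in sham and 0.717 to 0.850 in metastasis, and the Keap1 to Nfe2l2 ratio was highest in 1 metastasis liver, at 1.52.

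Slc7a11 encodes the light chain of the cystine and glutamate exchanger that brings in cystine for glutathione synthesis. It was near the limit of detection, with 0 and 2 counts in sham, 20 and 1 counts in PMN and 6 and 27 counts in metastasis. The ratio of summed counts to sham was 12.4 in PMN (exact 95% interval 3.04 to 109) and 18.6 in metastasis (4.77 to 160), where the intervals cover counting error only. The livers within a group differed 16.5-fold in PMN and 3.79-fold in metastasis, and neither comparison passed the test (edgeR adjusted p = 0.257 and 0.171). Its heavy chain partner Slc3a2, named here outside the rule for named genes, was at 28.8 and 23.9 CPM in sham, 29.1 and 22.8 in PMN and 37.9 and 27.8 in metastasis, so that all groups overlapped.

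Txnrd1 and Srxn1 serve the thioredoxin and peroxiredoxin arm: Txnrd1 is the cytosolic thioredoxin reductase, and sulfiredoxin, from Srxn1, repairs overoxidized peroxiredoxins. Txnrd1 was at 104 and 92.4 CPM in sham, 96.0 and 105 CPM in PMN and 71.8 and 66.6 CPM in metastasis. PMN overlapped sham, while both metastasis livers lay below all other livers. Its log2 fold change was 0.04 (95% CI -0.42 to 0.49) in PMN, where the sign turned negative with library size alone or on TPM, and -0.50 (95% CI -0.96 to -0.05, edgeR adjusted p = 0.136) in metastasis. Srxn1 was at 24.8 and 27.8 CPM in sham, 24.8 and 18.1 CPM in PMN and 34.8 and 27.7 CPM in metastasis, overlapping sham in both. The log2 fold change of Srxn1 was -0.29 (95% CI -0.86 to 0.27) in PMN and 0.25 (95% CI -0.32 to 0.81) in metastasis, where it was slightly negative with library size alone or on TPM.

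Osgin1, an oxidative stress induced growth inhibitor, varied most between livers of 1 group after Slc7a11. It was at 49.6 and 94.1 CPM in sham, 15.5 and 40.0 CPM in PMN and 32.9 and 42.4 CPM in metastasis. Both groups lay below sham without overlap, but the sham livers themselves differed 1.90-fold and the PMN livers 2.58-fold. The log2 fold change was -1.37 (95% CI -2.58 to -0.17, edgeR adjusted p = 0.144) in PMN and -0.93 (95% CI -2.12 to 0.26, edgeR adjusted p = 0.26) in metastasis. Leaving out a liver moved the PMN value between -2.19 (without PMN 2) and -0.84 (without sham 2 or PMN 1). In PMN it was called by DESeq2 (adjusted p = 0.0474).

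G6pdx encodes glucose-6-phosphate dehydrogenase, which starts the pentose phosphate pathway and makes NADPH, the reductant that glutathione reductase and thioredoxin reductase use. It was the only 1 of the 10 genes whose level lay above both sham livers in all 4 livers of tumor-bearing mice, with 3.65 and 4.35 CPM in sham, 7.64 and 16.8 CPM in PMN and 12.4 and 11.4 CPM in metastasis. Its log2 fold change was 1.61 (95% CI 0.67 to 2.55, edgeR adjusted p = 0.0605) in PMN and 1.57 (95% CI 0.63 to 2.51, edgeR adjusted p = 0.0529) in metastasis, so both missed the threshold. The PMN value was 0.96 without PMN 2 and 2.07 without PMN 1. DESeq2 called both (adjusted p = 0.00431 and 0.00464). G6pdx shares 13.6% of its exon bases with Ikbkg on the opposite strand, which was itself at 60.5 to 65.4 CPM in sham, 59.1 to 72.6 in PMN and 63.4 to 88.4 in metastasis. The summed markers of neutrophils, macrophages and proliferation given above were also higher in the same 4 livers, and their part in the G6pdx difference was not tested.

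**Figure D3:**
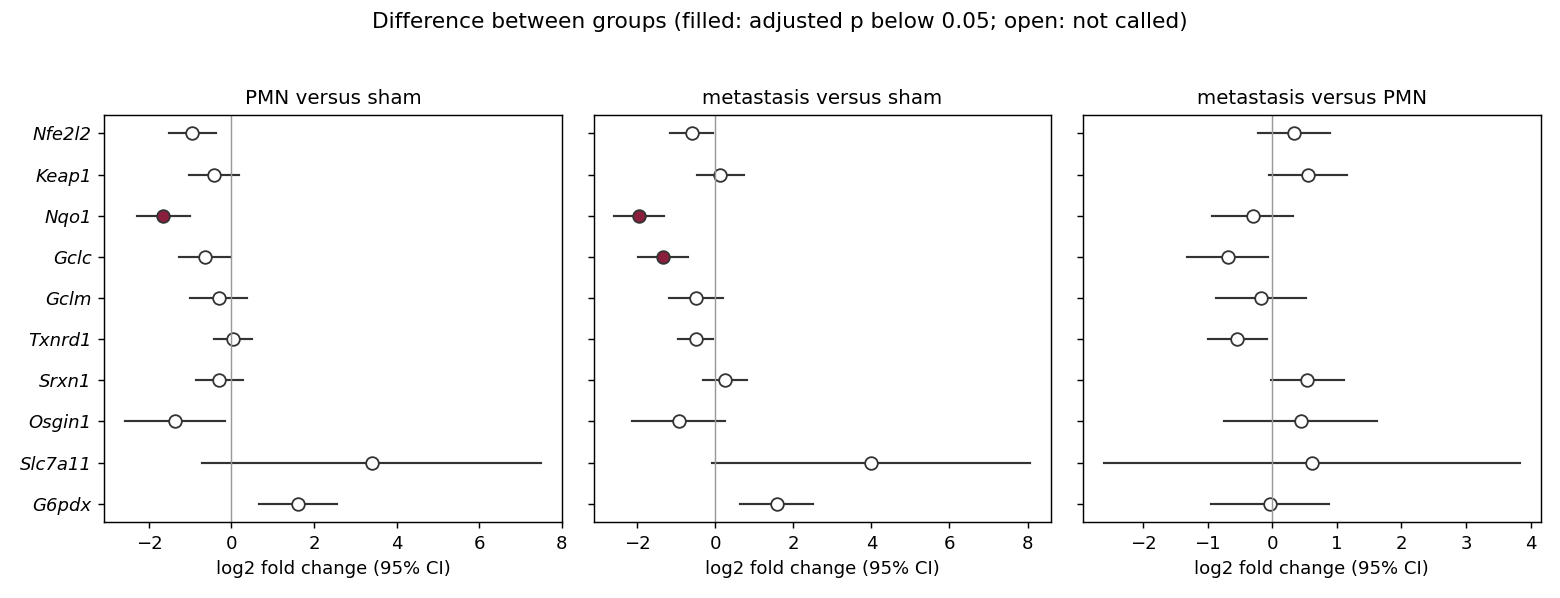
Log2 fold change of the 10 genes in the 3 comparisons (horizontal axis), with 95% confidence intervals from edgeR as lines. Filled points passed an adjusted p below 0.05: Nqo1 at -1.65 in PMN, and Nqo1 at -1.95 and Gclc at -1.34 in metastasis. No gene passed in metastasis against PMN.

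The order of the 10 genes by transcript level, compared per length on TPM, differed between the groups. In sham Gclc led with a mean of 149 TPM, followed by Gclm (108), Osgin1 (61.6) and Txnrd1 (54.9), whose livers overlapped, and Nfe2l2 (33.7). Srxn1, Keap1 (20.8) and Nqo1 (20.3) followed with overlapping livers, and G6pdx (3.84) and Slc7a11 (0.00531) were last. In PMN Gclc (83.8) and Gclm (76.4) overlapped, and from Osgin1 down to G6pdx (10.4) each gene overlapped the next. In metastasis Gclm (63.5) stood before Gclc (48.5), again with overlapping livers. Nqo1 moved from the eighth place in sham to the ninth in both other groups, at 5.66 TPM in PMN and 4.27 in metastasis, below G6pdx at 10.4 and 9.29.

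The second question was whether the metastasis livers differed from the PMN livers. None of the 10 genes passed the test, as was the case for every gene of the table (0% called higher and 0% lower, smallest edgeR adjusted p = 0.113). At an unadjusted p below 0.05, 0 of the 10 were higher and 2 were lower, Gclc and Txnrd1, and 1144 genes of the table were higher and 1049 lower. DESeq2 called 234 genes higher and 272 lower, but none of the 9 of the 10 genes for which it gave an adjusted p. The log2 fold change of metastasis against PMN was -0.69 for Gclc (95% CI -1.31 to -0.06, edgeR adjusted p = 0.353) and -0.54 for Txnrd1 (95% CI -0.997 to -0.09, edgeR adjusted p = 0.332). Nqo1 (-0.30, 95% CI -0.93 to 0.33) and G6pdx (-0.04, 95% CI -0.95 to 0.88) had intervals that include 0 but are too wide to show equal levels. The result depended on the metastasis livers. Without metastasis 2, edgeR called 1 of the 10 higher (Keap1) and 2 lower (Gclc and Gclm), beside 1312 and 1572 genes of the table, and without metastasis 1 it called 24 genes higher and 31 lower, none of the 10 among them.

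Around the 10 genes, 8 lists of other genes of the same biology were counted in the same fit. The first list held regulators of NRF2 together with related transcription factors. Of its 20 tested genes, 2 (10%) were higher and 1 (5%) lower in PMN, beside 4.92% and 2.38% of all tested genes. In metastasis 1 (5%) was higher and 2 (10%) were lower, beside 6.78% and 3.95%. Park7, which stabilizes NRF2, fell in both, from 182 and 188 CPM in sham to 83.7 and 97.5 in PMN (log2 fold change -1.03, edgeR adjusted p = 0.0322) and 97.2 and 96.9 in metastasis (-0.93, edgeR adjusted p = 0.0327). Nfe2l1, a related transcription factor, fell in metastasis from 143 and 129 to 58.4 and 72.1 CPM (-1.06, edgeR adjusted p = 0.0473). Nfe2, the related factor of blood cells, rose from 0.0985 and 0.340 CPM in sham to 1.66 and 4.27 in PMN and 4.99 and 2.80 in metastasis (3.72 and 4.12, edgeR adjusted p = 0.0406 and 0.0268). Dpp9, a peptidase that binds KEAP1, rose in PMN from 32.4 and 22.6 to 68.0 and 119 CPM (1.77, edgeR adjusted p = 0.0319). The most abundant gene of this list by mean TPM over all 6 livers, the measure used for each list, was Sqstm1, which had a log2 fold change of 0.07 in PMN and 0.30 in metastasis and was not called.

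**Figure D4:**
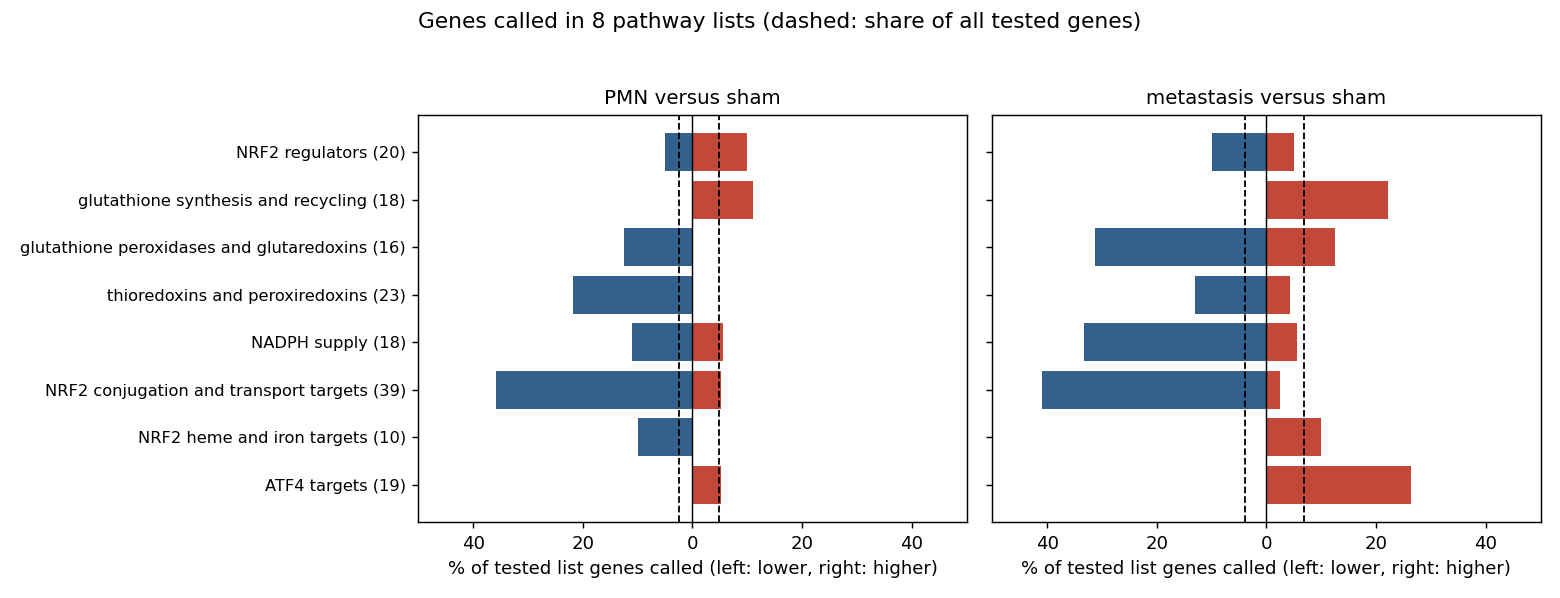
Share of the tested genes of each of 8 lists (number of tested genes in parentheses) called lower (blue, left) or higher (red, right) against sham. Dashed lines mark the share over all tested genes, 2.38% lower and 4.92% higher in PMN and 3.95% lower and 6.78% higher in metastasis. The conjugation and transport list had 14 and 16 of 39 genes called lower.

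The largest share of lower calls was among conjugation and transport targets. This list holds the glutathione S-transferases, which attach glutathione to drugs and lipid products, and also other enzymes such as Ephx1, Cbr1 and Nqo2 and the Abcc transporters. Of 39 tested genes, 14 fell and 2 rose in PMN, and 16 fell and 1 rose in metastasis, with median log2 fold changes of -0.96 and -1.17. Gsta2 fell from 77.7 and 43.5 CPM in sham to 3.31 and 3.12 in PMN (log2 fold change -4.23, edgeR adjusted p = 0.00727) and 5.75 and 3.24 in metastasis (-3.76, edgeR adjusted p = 0.00711). Gsta4, which acts on lipid aldehydes, fell from 164 and 142 CPM to 32.8 and 36.8 (-2.14, edgeR adjusted p = 0.00781) and 31.9 and 40.2 (-2.08, edgeR adjusted p = 0.00681). Gstm1 fell in PMN from 759 and 637 to 143 and 121 CPM (-2.41, edgeR adjusted p = 0.0299), and Gstm6 in metastasis from 111 and 113 to 24.1 and 28.5 CPM (-2.09, edgeR adjusted p = 0.00598). Gsta1 had 81 and 104 counts in sham, 1 and 1 in PMN and 0 and 0 in metastasis. Its level was 78.1-fold lower in PMN (exact 95% counting interval 21.3 to 650) and at least 54.6-fold lower in metastasis, taking 3 counts over the group as the floor. Several of the transferases are near-identical copies, and reads that map to more than 1 place were not counted, so that single members are uncertain.

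Against this direction, the transporter Abcc5 rose in PMN from 5.91 and 4.87 to 34.7 and 24.7 CPM (2.46, edgeR adjusted p = 0.0154). Mgst2 had 2 and 1 counts in sham and rose to 32 and 32 in PMN, 25.3-fold higher (exact 95% counting interval 8.26 to 126), and to 43 and 42 in metastasis, 32.0-fold higher (10.6 to 158). Gsta3, the most abundant gene of the list over all 6 livers but below Mgst1 in metastasis (380 against 663 TPM), did not pass, at -0.94 in PMN and -2.47 in metastasis on the log2 scale. The number of lower calls in this list was 0 in both comparisons when either sham liver was left out, and 0 in PMN without either PMN liver. In metastasis it was 4 in a fit of only the 2 groups, where 116 genes of the whole table were called lower, against 646. It also dropped in metastasis without either PMN liver, as did lower calls over the whole table. It was 25 in PMN without either metastasis liver, and 25 and 24 in metastasis without metastasis 1 and 2. Lower calls over the whole table moved with it, from 389 to 2112 and 2089 in PMN and from 646 to 1217 and 2683 in metastasis.

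Other arms of the defense had lower calls too. Among 16 glutathione peroxidases, glutaredoxins and related enzymes, 2 fell in PMN, and 5 fell and 2 rose in metastasis. Catalase, from Cat, which breaks down hydrogen peroxide, fell in both, with a log2 fold change of -1.68 (edgeR adjusted p = 0.035) in PMN and -2.80 (edgeR adjusted p = 0.00912) in metastasis. Gpx1, the cytosolic glutathione peroxidase, was the most abundant gene of the list over all 6 livers, but was below Sod1 in metastasis (820 against 1286 TPM). It was called in metastasis, where it fell by 2.03 (edgeR adjusted p = 0.0124), with a log2 fold change of -1.01 (edgeR adjusted p = 0.0717) in PMN. Glrx5 fell in PMN (-1.40, edgeR adjusted p = 0.0154) and Hagh in metastasis (-1.35, edgeR adjusted p = 0.0302). Gpx3, a secreted peroxidase, rose in metastasis from 1.21 and 2.26 to 131 and 18.3 CPM (5.42, edgeR adjusted p = 0.0244), and Sod3, a secreted superoxide dismutase, from 13.3 and 12.8 to 36.9 and 22.7 CPM (1.19, edgeR adjusted p = 0.0394).

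Of 23 thioredoxin and peroxiredoxin genes, 5 fell in PMN, and 3 fell and 1 rose in metastasis. The mitochondrial reductase Txnrd2, unlike its cytosolic counterpart Txnrd1, was called in both, from 29.8 and 32.1 CPM in sham to 10.2 and 11.8 in PMN (-1.49, edgeR adjusted p = 0.0223) and 11.1 and 15.6 in metastasis (-1.21, edgeR adjusted p = 0.0291). The difference between the 2 reductases was not tested. Prdx6 fell by 1.14 in PMN and by 1.28 in metastasis on the log2 scale (edgeR adjusted p = 0.0437 and 0.028), Selenow by 1.18 in PMN (edgeR adjusted p = 0.0288), and Txn2, the mitochondrial thioredoxin, by 0.94 in metastasis (edgeR adjusted p = 0.0327). Msrb3, a methionine sulfoxide reductase, rose in metastasis from 6.68 and 6.34 to 49.3 and 17.4 CPM (2.36, edgeR adjusted p = 0.0329). Prdx1, the most abundant gene of the list, was not called (-0.61 and -0.79).

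Among 18 genes of NADPH supply, where G6pdx belongs by function, 2 fell and 1 rose in PMN and 6 fell and 1 rose in metastasis. Me1, malic enzyme, fell from 154 and 147 CPM to 52.9 and 38.4 (-1.72, edgeR adjusted p = 0.0316) and 66.5 and 38.7 (-1.51, edgeR adjusted p = 0.0336). The mitochondrial isocitrate dehydrogenase Idh2 fell from 138 and 124 CPM to 55.1 and 52.7 (-1.28, edgeR adjusted p = 0.0177) and 55.3 and 52.9 (-1.27, edgeR adjusted p = 0.0146). Mthfd1 fell in metastasis (-1.39, edgeR adjusted p = 0.0255). H6pd, the counterpart of G6pdx in the endoplasmic reticulum, rose in PMN from 212 and 176 to 403 and 379 CPM (1.01, edgeR adjusted p = 0.0403). The mitochondrial folate enzyme Mthfd2 rose in metastasis from 0.246 and 0.475 to 5.57 and 5.47 CPM (3.92, edgeR adjusted p = 0.00819). The most abundant gene, Aldh1l1, was not called (-0.45 and -0.97).

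Of 18 other genes of glutathione synthesis and recycling, 2 rose in PMN and 4 in metastasis, and none fell. Chac1, which degrades glutathione, rose from 2.66 and 1.27 CPM in sham to 19.5 and 9.59 in PMN (2.89, edgeR adjusted p = 0.0316) and 17.8 and 10.8 in metastasis (2.87, edgeR adjusted p = 0.0253). The dipeptidase Dpep2 had no count in either sham liver, 53 and 45 in PMN and 95 and 54 in metastasis, at least 38.7-fold and at least 56.1-fold higher with 3 counts over the group as the floor. The glutamine transporter Slc1a5 rose in metastasis from 0.591 and 1.02 to 5.37 and 3.93 CPM (2.52, edgeR adjusted p = 0.0191). The aminopeptidase Lap3, the most abundant gene over all 6 livers but below Slc25a39 in sham and metastasis, was not called (-0.25 and -0.80).

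Of 10 heme and iron targets, Ftl1, the ferritin light chain and the most abundant, fell in PMN from 3326 and 3132 to 1564 and 1234 CPM (-1.21, edgeR adjusted p = 0.0429). Hmox1, heme oxygenase, which NRF2 and heme both induce, rose in metastasis from 11.9 and 11.7 to 189 and 54.6 CPM (3.36, edgeR adjusted p = 0.021). Its level in PMN was 72.0 and 56.4 CPM, above both sham livers, with a log2 fold change of 2.44 just over the threshold (edgeR adjusted p = 0.0503). The summed monocyte and macrophage markers were higher in both groups, as given above, and erythroid markers in the metastasis livers, with 9 of 11 called, but not in PMN, with 0 of 11. Their part in the Hmox1 difference was not tested. Among 19 targets of ATF4, the transcription factor of amino acid stress that also acts on Slc7a11, 1 rose in PMN, Chac1, and 5 in metastasis, Chac1 and Mthfd2 among them. The others were Asns, Phgdh and Psat1, enzymes of asparagine and serine synthesis, all at low levels in sham. Asns had 0 and 8 counts in sham, 51 and 34 in PMN and 183 and 325 in metastasis (edgeR adjusted p = 0.0156 in metastasis). Phgdh had 10 and 5 counts in sham, 40 and 15 in PMN and 49 and 308 in metastasis (edgeR adjusted p = 0.0362), and Psat1 12 and 18, 134 and 52, and 95 and 333 (edgeR adjusted p = 0.0232). For Phgdh and Psat1 most of the metastasis counts came from metastasis 2. Ddit4, the most abundant ATF4 target over all 6 livers but not in sham, where it had 20.7 TPM against 105 for Atf5, was not called (3.56 and 3.92). The medians of this list were 0.73 in PMN and 1.15 in metastasis. In metastasis against PMN no gene of the 8 lists was called.

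The genes whose pattern over the 6 livers was most like that of Nfe2l2 and Nqo1 were sought among 9283 genes with a mean of at least 5 CPM, by Pearson's r of log2 CPM. For Nfe2l2 these were Ndufs6 (0.993), Psmg3 (0.993) and Klhl33 (0.992). For Nqo1 they were Dop1b (0.997), Elac2 (0.996) and Aldh2 (0.995), and Aldh2, the mitochondrial aldehyde dehydrogenase, had 1216 and 1130 CPM in sham, 609 and 591 in PMN and 525 and 499 in metastasis. The 6 values of each gene share their libraries and groups, so these coefficients are descriptions.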

How the data were processed

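Whole-liver RNA of 6 mice was analyzed, 2 per group, and the series' design text calls them biological replicates. The authors aligned reads to mm10 with HISAT2 2.1.0 and counted uniquely mapped exon reads per gene with featureCounts (Subread 2.0.6). They deposited raw counts and TPM values. The annotation and the strand setting are not given in the sources used here. The library kit does not mark strand. Livers held 32838321 to 43368309 counts, so 3 counts correspond to 0.0679 to 0.0928 CPM.

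Groups were compared on the deposited counts in R 4.3.3 by the quasi-likelihood test of edgeR 4.0.16, with TMM scaling and filterByExpr (minimum 10 counts). All 6 livers entered a single model, and p-values were adjusted by Benjamini-Hochberg for the 16370 genes tested, with 0.05 as threshold. The model assumes for each gene the same spread in all groups. Counts of the 2 livers of a group differed most in metastasis (chi-square per degree of freedom 337, against 24.8 in sham and 73.1 in PMN). The SE was taken from the F statistic, and the 95% interval from its t distribution. CPM used TMM-scaled totals, and log2 CPM a prior count of 2. The procedure was also run on simulated counts with known changes, and the outcome is not given here. The methods of the paper name no test for single genes of these livers. The members and the 17 gene lists were chosen with earlier results of these data known. All 10 members are named. In each pathway list the rule names the most abundant gene by TPM and, per comparison and direction, up to 3 called genes with the largest fold and a mean of at least 1 CPM, and not every gene it covers is described. Exon overlaps come from GENCODE annotation of mm10, promoter windows from RefSeq (GRCm38.p6). The 16 alternatives included DESeq2 1.42.0 and limma 3.58.1 on log2(TPM + 1) and log2(TPM + 0.1). For the lists they were added after the data were seen.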

Additional observations from a re-analysis of the deposited data

How the results depend on the processing

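Of 475 alternative values for the 10 genes, 418 kept direction and side of the threshold, 27 newly passed it, 11 no longer passed it and 19 changed sign; causes were not tested. Members called higher in PMN went from 0 to 1 (G6pdx) with DESeq2 or only the 2 groups (0 to 1 leaving out a liver), and in metastasis to 1 with DESeq2, no filter or the replicate block (0 to 1). Over all genes, higher calls in PMN were 1662 and 2548 in these fits, against 806, and in metastasis 2003, 1184 and 954, against 1110. Lower calls in PMN were 3 with DESeq2, 4 with only 2 groups, 2 with the replicate block (Osgin1 added), 2 without TMM (0 to 3 leaving out a liver), and in metastasis 1 with only 2 groups (0 to 4). Over all genes, lower calls in PMN were 1049 with DESeq2, 2223 with only 2 groups (9 members tested) and 801 without TMM, against 389. Metastasis against PMN gave 0 to 1 higher and 0 to 2 lower. The conjugation list had 25 lower calls in PMN and 4 in metastasis with only the 2 groups, where lower calls over all genes were 2223 and 116 (389 and 646 otherwise), and 0 to 25 in both leaving out a liver. Other list counts moved by over 1.5 times in part: over all lists 268 of 768.

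Signs turned for uncalled values. Without TMM, with TPM + 1 and with TPM + 0.1, Keap1 in metastasis was -0.16, -0.19 and -0.20, Srxn1 in metastasis -0.035, -0.053 and -0.055, and Txnrd1 in PMN -0.22, -0.15 and -0.15. Without TMM the median of all genes shifted to -0.25 in PMN and -0.23 in metastasis, and on log2(TPM + 1) to -0.10 and -0.15. Leaving out a liver gave in metastasis against PMN -0.50 to 0.63 for G6pdx, -0.63 to 0.17 for Gclm, -0.089 to 1.27 for Osgin1 and -0.65 to 3.63 for Slc7a11, in metastasis -0.23 to 0.42 for Keap1, and in PMN -0.044 to 0.13 for Txnrd1.

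Replicate numbers did not pair the livers (r of deviations -0.03, 0.08 and 0.04). With the replicate block, G6pdx in metastasis against PMN was 0.049, and 673 and 259 genes were called in PMN and 954 and 553 in metastasis. A lone liver left in a group was assumed to vary like the others. Without either sham liver no gene was called. Depth limits Slc7a11 alone among the 10, at 27 counts or fewer.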
